A study of Mus musculus with 8 samples.

Results

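The axon guidance ligand and receptor genes were examined in RNA purified from mu opioid receptor (MOR)-expressing neurons of the paraventricular nucleus of the thalamus (PVT). They were taken by gene symbol, with earlier results of these data known, as the semaphorins of classes 3 to 7, plexins, neuropilins, ephrins, Eph receptors, Slits, Robos, netrins, netrin-Gs, Unc5 receptors and Dcc. The symbols gave 71 of the 18939 genes in the table, 37 ligands and 34 receptors. These were 20 semaphorins, 9 plexins, 2 neuropilins, 8 ephrins, 14 Eph receptors, 3 Slits, 4 Robos, 6 netrins and netrin-Gs, and 5 genes of the Dcc and Unc5 family. All 71 had counts and were tested, and 65 had at least 10 counts in every library.

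The mice carried OPRM1cre and the EGFP-L10a transgene on a C57Bl/6J background and were 8 to 12 weeks old when experiments began. The control group (4 libraries, 2 labelled male and 2 labelled female) drank 0.2% saccharin, which the labels call control drinking water. The morphine group (4 libraries, 2 male and 2 female) drank morphine in 0.2% saccharin, raised to 0.5 mg/ml, over 11 days. Cre was expressed from the Oprm1 locus, so the tagged ribosomal protein marks any cell of the dissection in which Oprm1 was active at some time. Each library pooled 2 gross PVT dissections, taken from mice of a single sex, and RNA bound to tagged ribosomes was pulled down with anti-GFP antibodies (Translating Ribosome Affinity Purification, TRAP).

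Guidance cues steer growing axons by attraction and repulsion, and many are still made in the adult brain, where they act at synapses. Semaphorins signal through plexins, and most class 3 semaphorins need a neuropilin as co-receptor. Ephrins are bound to the membrane and signal through Eph receptor tyrosine kinases, in both directions across a contact between cells. Slits repel through Robo receptors, and netrin-1 attracts through Dcc and repels through Unc5 receptors. Netrin-Gs are anchored to the membrane and bind partners at synapses instead of Dcc.

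Total counts lay between 31151103 and 47582947 per library. Control replicate 5, labelled female, held counts of Y-linked genes, so its sex is uncertain. Oprm1, which defines the purified cells, lay between 16.8 and 32.3 CPM (counts scaled by library size) in the controls and between 14.0 and 18.4 CPM in the morphine libraries. All 12 thalamic markers were detected in every library, and their summed CPM ranged from 2582 to 3478 in the controls and from 1999 to 3284 with morphine. Of these 12, 4 were lower and 0 higher at an unadjusted P under 0.05, with a median log2 fold change of -0.31. They included Oprm1 (-0.62 ± 0.19, unadjusted P = 0.00649) and Gbx2 (-0.69 ± 0.22, unadjusted P = 0.00805), neither called by edgeR or DESeq2. Markers of other regions were also measured. The sum of 13 choroid plexus markers was 36.1 to 112 CPM in the controls and 130 to 403 CPM in the morphine libraries, with 10 of them higher at an unadjusted P under 0.05, and the sum of 12 telencephalic pyramidal neuron markers was 331 to 591 CPM against 455 to 911 CPM, with 6 higher and 1 lower. The groups did not overlap in the choroid plexus sum, and in the telencephalic sum control replicate 6 (591 CPM) lay above morphine replicate 3 (455 CPM). None of these markers was called by edgeR. DESeq2 called Ttr, the main choroid plexus transcript (17.0 CPM in the controls, 174 CPM with morphine, adjusted P = 0.0297), and Neurod6, a pyramidal neuron gene (5.13 against 50.8 CPM, adjusted P = 0.00116), both higher. Summed ranges also overlapped between the groups for habenula, inhibitory neurons, ependyma, oligodendrocytes, astrocytes, microglia, and endothelial cells and pericytes. Only genes with counts were measured, so no measured marker could be at 0 in every library. Of the markers listed, 12 of 13 telencephalic and 6 of 7 ependyma genes were measured.

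In the control libraries the members differed widely in level. No library of unpurified tissue was analysed here, and the control libraries also held markers of other cells, such as 129 to 1300 CPM of summed oligodendrocyte markers, so the cells behind each level were not tested. Levels are compared between genes as CPM per kilobase of transcript in the control libraries. Their median over the 71 genes was 3.10, 55 genes were at 1 or more, 9 at 10 or more, and 4 under 0.1. Ntng1, which encodes netrin-G1, ranked first at 148 ± 9.0 (SD, n = 4). That value rests on a transcript of 1620 bases, and with the longest coding transcript of 5587 bases it was 42.9, still the highest of all. The next in order were the transmembrane ligands Efnb3 at 29.5 ± 5.2 and Sema6b at 27.5 ± 8.2. Their libraries overlapped, at 25.1 to 37.0 and 21.0 to 38.9, so their order is within the spread. With its longest coding transcript Sema6b was at 23.3. Sema7a, a semaphorin anchored to the membrane, was at 24.1 ± 5.0, so which of the 2 stood higher depends on that length, and Sema4g was at 19.9 ± 2.9. Epha4 was the most abundant receptor, at 16.4 ± 1.4, and overlapped with Epha6 at 15.4 ± 1.2.

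**Figure D1:**
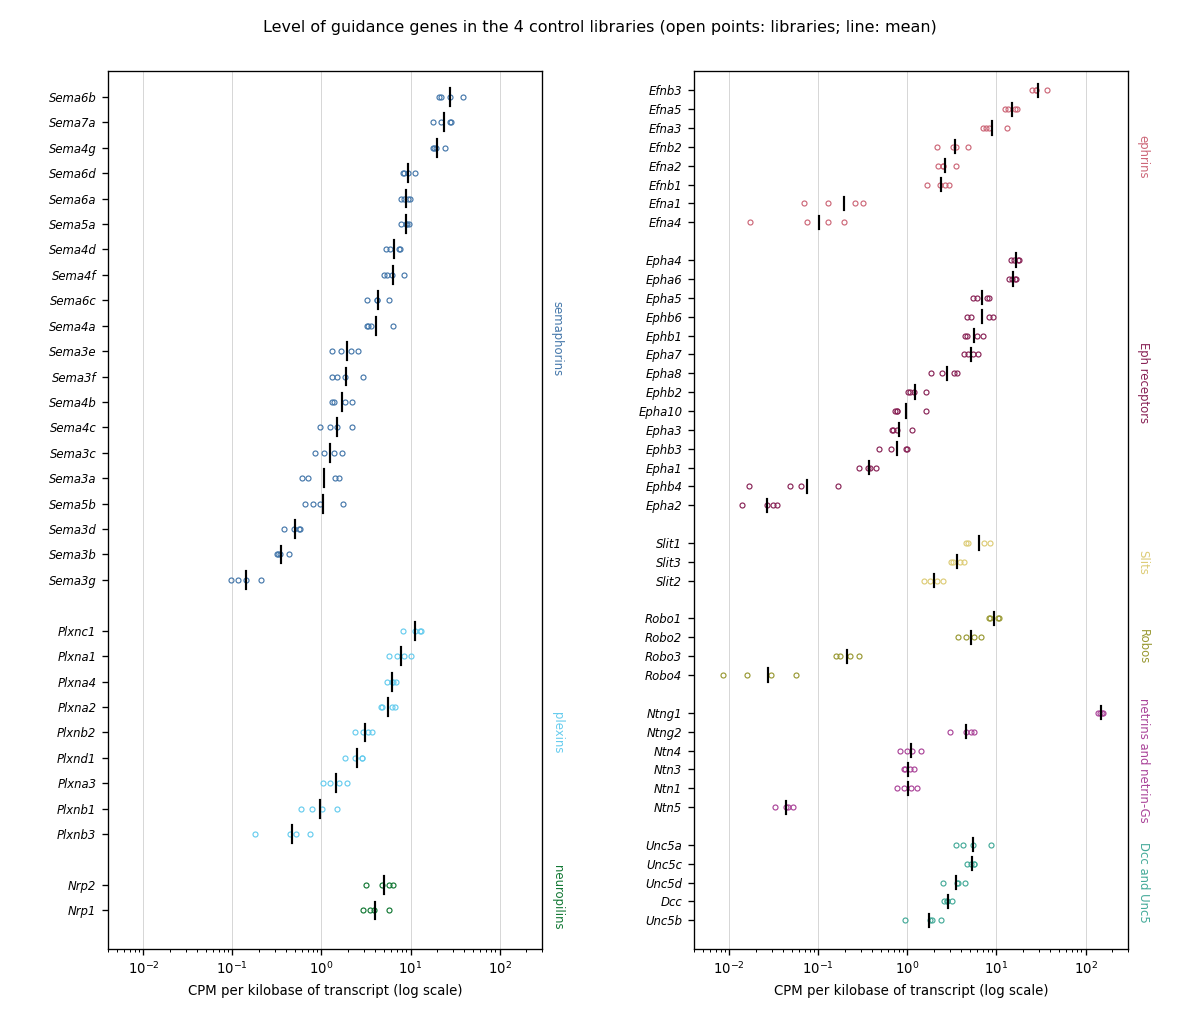
Each open point is 1 control library and each black line the mean of 4, as CPM per kilobase of transcript on a log axis, with the 71 genes grouped by family. Ntng1 stood at the top, and Epha2, Robo4, Ntn5 and Ephb4 lay under 0.1.

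Within the receptor families the leading members were Epha4, Plxnc1 (11.3 ± 2.2), Robo1 (9.43 ± 1.2), Unc5a (5.47 ± 2.3) and Nrp2 (4.99 ± 1.4). Unc5c, at 5.28 ± 0.47, was not separated from Unc5a, and Nrp1, at 4.00 ± 1.3, was not separated from Nrp2. Dcc itself was at 2.83 ± 0.25 and its ligand gene Ntn1 at 1.01 ± 0.23. Among the Slits, Slit1 had the highest mean at 6.30 ± 1.9, followed by Slit3 (3.64 ± 0.58) and Slit2 (1.99 ± 0.41). With the longest coding transcript of Slit1 its mean was 5.61 and its lowest library, at 4.08, lay under the highest of Slit3, at 4.34. The lowest member of each family, on the same scale, was Sema3g (0.140 ± 0.049) among semaphorins, Plxnb3 (0.471 ± 0.23) among plexins, Efna4 (0.103 ± 0.075) among ephrins, Epha2 (0.0263 ± 0.0089) among Eph receptors, Robo4 (0.0274 ± 0.021) among Robos, Ntn5 (0.0432 ± 0.0080) among netrins and Unc5b (1.75 ± 0.60) in the Dcc and Unc5 family. Robo4, a Robo known from endothelium, had 1 to 8 counts per library, and Epha2 had 1 to 7.

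The question of the morphine comparison was which of these genes differed between the groups in the purified RNA after chronic morphine. The choroid plexus marker sums did not overlap between the groups either. Whether a difference lay within MOR-expressing PVT neurons was not tested. Epha4 increased with morphine as compared to control and was the only 1 of the 71 genes called by edgeR's quasi-likelihood test at an adjusted P under 0.05, while none was called lower. Over all genes, 0.164% were called higher and 0.0317% lower. DESeq2 called 8 of the 68 members to which it gave an adjusted P, or 11.8%, all higher, where it called 2.12% of all genes higher and 1.17% lower. These 8 were Epha4, Epha7, Plxna4, Ntn5, Sema5a, Slit3, Robo2 and Nrp1. At an unadjusted P under 0.05, edgeR put 18 of the 71 (25.4%) higher and 2 (2.82%) lower, against 6.79% and 5.31% of all genes. In both directions together these were 20 members (28.2%, against 12.1% of all genes), with 13 (18.3%, against 7.6% of all genes) without control replicate 1 and 27 (38%, against 18.5% of all genes) without control replicate 2. In 7 members (9.86%) the lowest morphine library exceeded the highest control library, and in 0 members the reverse was seen, against 3.34% and 3.21% of all genes. For Ntn5, counted among the 7, the closest control and morphine libraries both held 3 counts and differ in CPM by library size alone.

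Of the 71 genes, 55 (77.5%) had a log2 fold change above 0, as did 51.4% of all genes. The median log2 fold change was 0.21 over the members and 0.01 over all genes. Receptors stood at a median of 0.25, with 28 of 34 above 0 and 11 higher at an unadjusted P under 0.05. Ligands stood at 0.16, with 27 of 37 above 0, 7 higher and 2 lower. These counts moved with single libraries. Without control replicate 2, 63 members were above 0 with a median of 0.35, and without control replicate 5 there were 46 with a median of 0.11. Without control replicate 1 there were 50 with a median of 0.12, and without morphine replicate 8 there were 43 with a median of 0.09. In these 4 fits 48.8% to 52.5% of all genes were above 0.

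**Figure D2:**
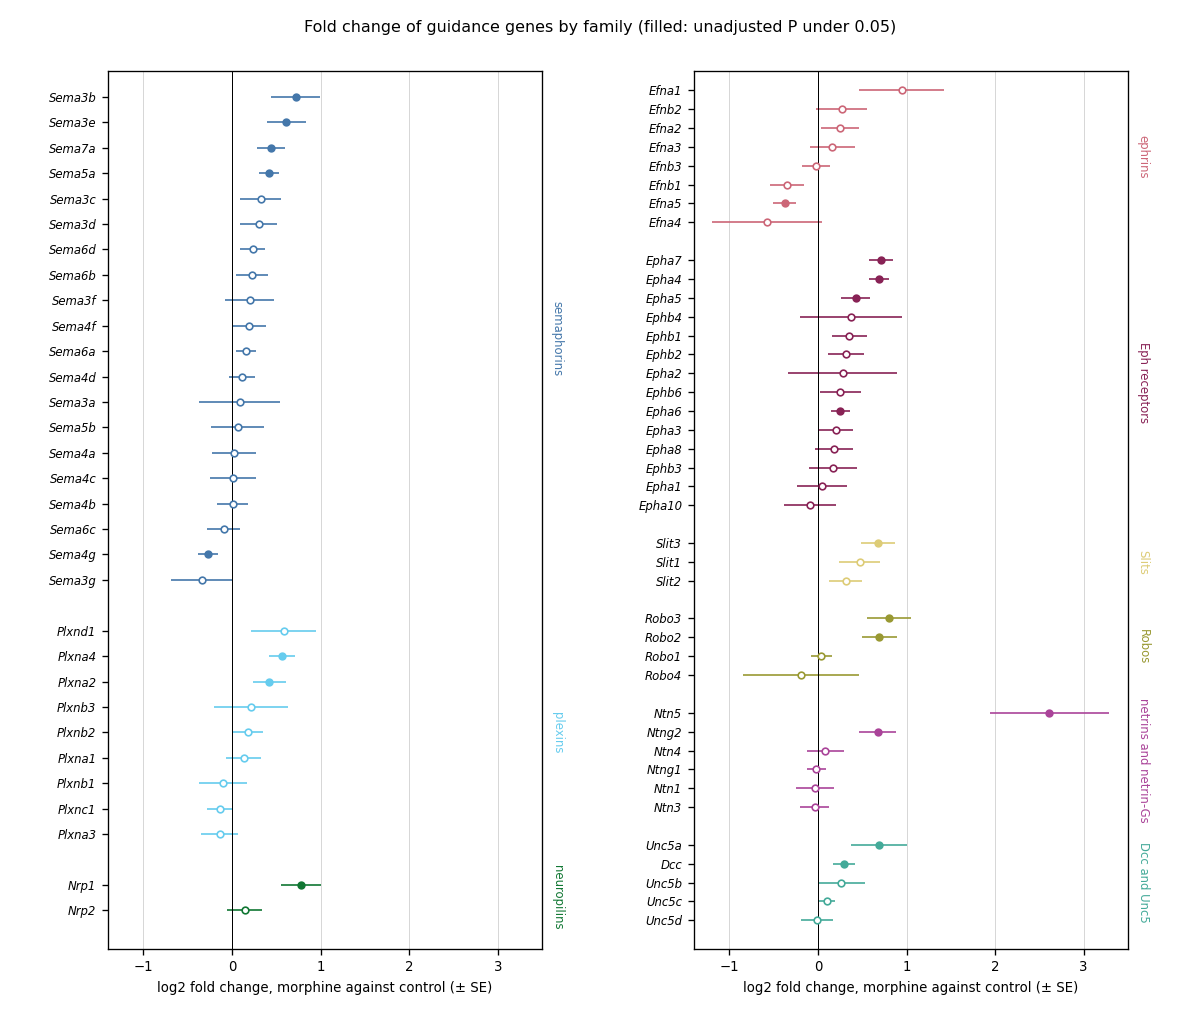
The log2 fold change of morphine against control is plotted with its SE for each of the 71 genes, by family, and filled points have an unadjusted P under 0.05. Epha4 lay at 0.69 with a short SE, Ntn5 at 2.61 rests on few counts, and Efna5 and Sema4g were the 2 filled points below 0.

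Epha4 encodes a receptor tyrosine kinase that binds ephrins of both the A and the B type and acts in axon repulsion and at synapses. The gene lies at chr1:77367182-77515107 (GRCm38.p6). Its CPM was 99.1, 112, 110 and 93.0 in control replicates 1, 2, 5 and 6, and 138, 184, 161 and 184 in morphine replicates 3, 4, 7 and 8. Every morphine library was above every control library, and morphine replicate 3 was the lowest of its group. The log2 fold change was 0.69 ± 0.11 (SE), a fold of 1.61, with an adjusted P of 0.0474 by edgeR and 3.27e-05 by DESeq2. By exact permutation of the 8 values (two-sided), P was 0.0286, the lowest that 4 libraries against 4 can give. The edgeR call was close to its threshold. The adjusted P was 0.0660 after filterByExpr, 0.0566 with at least 10 counts in every library, 0.0620 with limma-voom and 0.0510 with transcript rows summed. Leaving out 1 library at a time kept the log2 fold change between 0.62 and 0.77, and the call was held only without morphine replicate 3. The adjusted P was 0.164 without control replicate 1, 0.0507 without control replicate 2, 0.0654 without control replicate 5, 0.0763 without control replicate 6, 0.158 without morphine replicate 4, 0.0886 without morphine replicate 7 and 0.146 without morphine replicate 8.

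Epha7, the gene of a receptor for A-type ephrins, lies at chr4:28813066-28967503. It was at 29.1, 36.3, 32.2 and 41.6 CPM in the controls and at 51.1, 53.7, 53.3 and 69.3 CPM with morphine, so the groups did not overlap. This gave a log2 fold change of 0.71 ± 0.14, with an adjusted P of 0.0642 by edgeR and 0.000468 by DESeq2. Over the alternative settings without a marker score the adjusted P ran from 0.000468 to 0.183. It passed in edgeR with sex in the model (0.0367) and without control replicate 6 (0.0402).

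**Figure D3:**
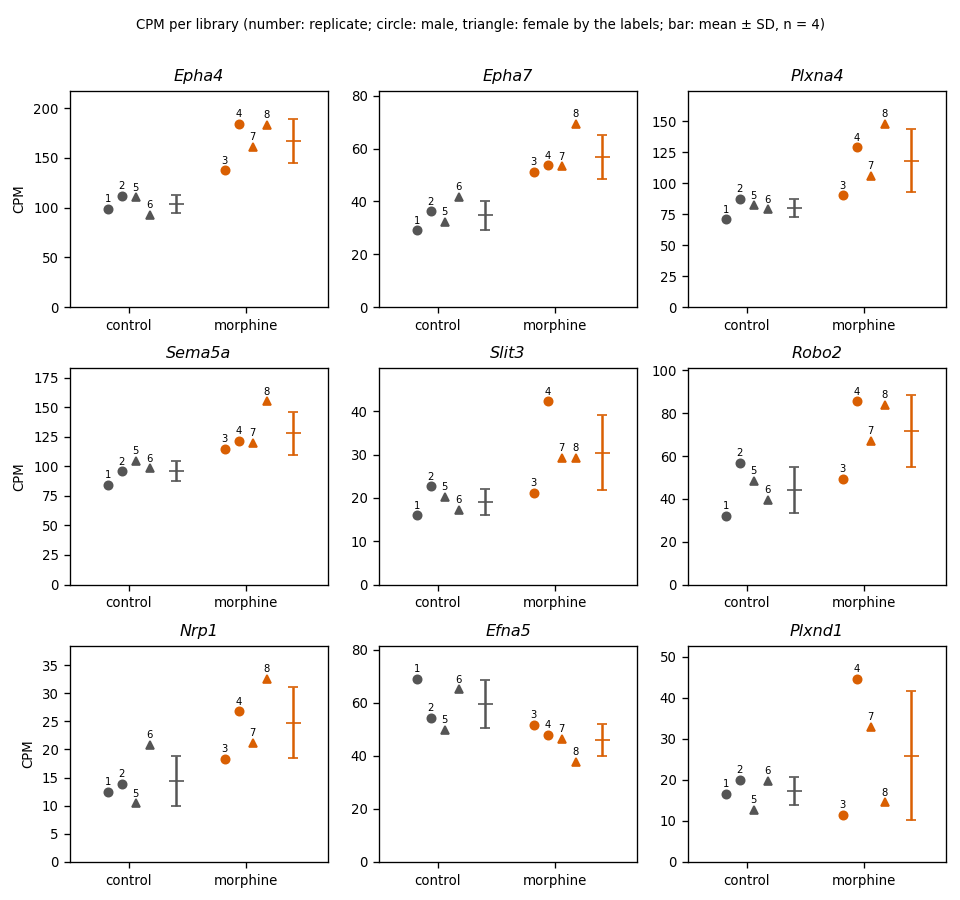
CPM is plotted for each library from 0, with replicate numbers, for 7 members called by DESeq2 together with Efna5 and Plxnd1, and the bar at the right of each group is the mean ± SD of 4 libraries. Epha4, Epha7, Plxna4 and Sema5a separate the groups, while Plxnd1 is high in morphine replicates 4 and 7 only.

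The promoter sequences of both Eph receptor genes and of Efna5, the ligand gene with the lowest P among members lower with morphine, are shown because the fold changes of the receptors and of this ligand had opposite signs. They are the 250 bases before the start of a RefSeq transcript on GRCm38.p6, written 5′ to 3′ on the strand of the gene, and for Epha7 the first of 2 such windows is shown. The gene coordinates given here are the whole RefSeq span of a gene, and the last 19 bases of the Epha4 window and the last 65 of the Epha7 window lie inside it. Capitals mark the GC box GGGCGG, the cAMP response element core TGACG and the E-box CACGTG on either strand. Epha4 is from chr1:77515089-77515338 (minus strand), Epha7 from chr4:28812881-28813130 (plus strand) and Efna5 from chr17:62881318-62881567 (minus strand).
Epha4: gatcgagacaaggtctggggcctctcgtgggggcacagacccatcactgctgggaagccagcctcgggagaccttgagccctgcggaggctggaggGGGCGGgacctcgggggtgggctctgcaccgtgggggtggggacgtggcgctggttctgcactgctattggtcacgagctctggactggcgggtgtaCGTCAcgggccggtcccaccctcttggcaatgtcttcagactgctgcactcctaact
Epha7: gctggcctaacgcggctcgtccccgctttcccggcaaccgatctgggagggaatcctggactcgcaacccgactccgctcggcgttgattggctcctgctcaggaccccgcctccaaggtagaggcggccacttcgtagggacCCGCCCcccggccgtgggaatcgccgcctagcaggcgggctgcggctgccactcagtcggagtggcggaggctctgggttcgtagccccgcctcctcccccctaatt
Efna5: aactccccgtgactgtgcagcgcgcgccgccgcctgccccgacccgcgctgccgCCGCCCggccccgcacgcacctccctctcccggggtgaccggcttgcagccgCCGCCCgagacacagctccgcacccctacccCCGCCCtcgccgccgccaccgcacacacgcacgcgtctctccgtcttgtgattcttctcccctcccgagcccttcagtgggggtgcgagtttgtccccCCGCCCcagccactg

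The Epha4 promoter held 1 TGACG, read on the opposite strand as CGTCA, and 1 GC box. The Epha7 promoter held 1 GC box and the Efna5 promoter 4, and neither held TGACG. None of the 3 held CACGTG. Promoters of 61 members were in the table, 77 windows in all, since some genes have several starts. Of these windows, 9.09% held TGACG, 5.19% held CACGTG and 70.1% held GGGCGG, where the shares among all 32851 promoter windows of this length were 17.8%, 6.02% and 32.7%. The median GC content was 64.4% in the members' windows and 52.4% in all windows. These matches describe letters and are not evidence of binding.

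With condition alone fitted, the other Eph receptors mostly lay on the same side. The log2 fold change was above 0 for 13 of 14 Eph receptors. All 5 of the B type were above 0, from 0.17 to 0.37, although none reached an unadjusted P under 0.05. In the fit with choroid plexus markers, described below, all 5 lay below 0, from -0.65 (Ephb4) to -0.067 (Ephb1). Of the A type, only Epha2, Epha4, Epha6 and Epha7 remained above 0 there. With telencephalic markers fitted instead, Ephb3 (-0.30) and Ephb6 (-0.24) lay below 0 and the rest of the B type above. Epha5 was at 50.4 ± 10.2 CPM in the controls and 67.7 ± 12.6 CPM with morphine (log2 fold change 0.43 ± 0.16, adjusted P = 0.320). For Epha6 the log2 fold change was 0.25 ± 0.11 (adjusted P = 0.380). Ephrins were evenly divided, with 4 of 8 above 0. Efna5, an A-type ephrin anchored by a lipid tail, was at 69.1, 54.3, 49.8 and 65.1 CPM in the controls and at 51.8, 47.9, 46.4 and 37.7 CPM with morphine. The groups overlapped at morphine replicate 3 and control replicate 5. Its log2 fold change was -0.37 ± 0.13, with an adjusted P of 0.283 by edgeR and 0.163 by DESeq2, so no fall was called. The most abundant ephrin, Efnb3, was at 93.9 ± 16.5 CPM in the controls and 92.3 ± 17.7 CPM with morphine.

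Among the Slits and their receptors, Slit3 and Robo2 were called by DESeq2 but not by edgeR. Slit3, a secreted repellent encoded at chr11:35121456-35708507, was at 15.9, 22.7, 20.2 and 17.2 CPM in the controls and at 21.1, 42.3, 29.2 and 29.2 CPM with morphine. Only morphine replicate 3 fell within the range of the controls. Its log2 fold change was 0.68 ± 0.19, with an adjusted P of 0.185 by edgeR and 0.0376 by DESeq2. Robo2, a Slit receptor gene at chr16:73891976-75447443, was at 32.1, 56.9, 48.4 and 39.5 CPM in the controls and at 49.5, 85.5, 67.2 and 84.0 CPM with morphine. Again morphine replicate 3 was the one inside the control range. Its log2 fold change was 0.69 ± 0.20, with an adjusted P of 0.188 by edgeR and 0.0401 by DESeq2.

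Robo1, the more abundant receptor, was at 71.4 ± 9.3 CPM in the controls and 73.3 ± 7.1 CPM with morphine (log2 fold change 0.04 ± 0.11). Robo3, whose product is known for midline crossing of axons, had 32 to 51 counts in the controls and 52 to 96 with morphine. Its CPM did not overlap between the groups, at 0.765 to 1.39 against 1.46 to 1.98, and the log2 fold change was 0.80 ± 0.25 (adjusted P = 0.223). Slit1 and Slit2 had log2 fold changes of 0.47 ± 0.24 and 0.31 ± 0.18, with overlapping groups. Without morphine replicate 8 they were at 0.27 and 0.19, and without control replicate 5 Slit2 was at 0.19. Robo3 and Robo4 lie 2.0 kb apart on chromosome 9, and only Robo3 was measured above a few counts.

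In the netrin families, the groups overlapped for Ntng1, the most abundant gene, and were apart for Ntng2, which neither edgeR nor DESeq2 called. Ntng1 was at 256, 246, 234 and 222 CPM in the controls and at 277, 207, 226 and 234 CPM with morphine, with a log2 fold change of -0.02 ± 0.11. Ntng2, encoding netrin-G2, was at 5.28, 9.79, 7.99 and 9.04 CPM in the controls and at 10.2, 15.0, 10.3 and 15.7 CPM with morphine. These groups did not overlap, and the log2 fold change was 0.67 ± 0.21 (adjusted P = 0.233 by edgeR, 0.0683 by DESeq2). Ntn5 had 2, 3, 3 and 3 counts in the control libraries and 3, 32, 9 and 19 in the morphine libraries. Over the group totals of 11 and 63 counts the ratio was 6.27, with an exact 95% interval of 3.28 to 13.2 that covers counting error only. Morphine replicate 4 held 32 of the 63, and without it the ratio was 3.97 (1.94 to 8.76), with the fitted log2 fold change at 1.89 in place of 2.61. The gene span of Ntn5 overlaps that of Sec1, and the counting is not stated to use strand. Exons of the 2 genes were not compared, so its counts may include reads of Sec1.

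Ntn1 was at 5.81 ± 1.3 CPM in the controls and 5.67 ± 1.3 CPM with morphine. Of its receptors, Dcc was at 29.2 ± 2.6 CPM in the controls and 35.8 ± 5.6 CPM with morphine, a log2 fold change of 0.29 ± 0.13 (adjusted P = 0.381), and morphine replicate 3, at 28.0 CPM, lay among the controls. Unc5a varied widely among libraries, at 13.9 to 34.9 CPM in the controls and 20.4 to 47.6 CPM with morphine, with a log2 fold change of 0.69 ± 0.31 (adjusted P = 0.408). Unc5d, at 32.5 ± 7.2 and 32.3 ± 6.7 CPM, showed no difference beyond the spread.

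Among semaphorins 17 of 20 had a log2 fold change above 0. Sema5a, a transmembrane semaphorin encoded at chr15:32244813-32696341, was at 84.2, 95.8, 104 and 98.2 CPM in the controls and at 115, 122, 120 and 155 CPM with morphine. The groups did not overlap, and morphine replicate 8 was the highest. On the log2 scale the change was 0.42 ± 0.11, with an adjusted P of 0.169 by edgeR and 0.0401 by DESeq2. Sema7a (0.44 ± 0.15, adjusted P = 0.283), Sema3e (0.61 ± 0.22, adjusted P = 0.285) and Sema3b (0.72 ± 0.27, adjusted P = 0.320) had overlapping groups. Sema4g was at 87.6, 110, 83.2 and 80.8 CPM in the controls and 70.9, 77.9, 69.8 and 81.1 CPM with morphine. Its log2 fold change was -0.27 ± 0.11 (adjusted P = 0.363), and it was not called. Without control replicate 2 it was at -0.16.

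Of the semaphorin receptors, Plxna4, encoded at chr6:32144543-32588192, was at 70.9, 87.7, 82.2 and 79.0 CPM in the controls and at 90.5, 129, 106 and 148 CPM with morphine. The lowest morphine library, replicate 3, was just above the highest control. A log2 fold change of 0.57 ± 0.14 was fitted, with an adjusted P of 0.145 by edgeR and 0.0212 by DESeq2. Nrp1, encoding the co-receptor for Sema3a, was at 12.5, 13.9, 10.4 and 20.8 CPM in the controls and at 18.4, 26.8, 21.2 and 32.6 CPM with morphine. Control replicate 6 lay above morphine replicate 3, and the log2 fold change was 0.78 ± 0.23 (adjusted P = 0.190 by edgeR, 0.0354 by DESeq2). Nrp2, which favours other class 3 semaphorins, was at 31.7 ± 8.9 and 35.0 ± 5.3 CPM (0.14 ± 0.20). Plxna2 had a log2 fold change of 0.42 ± 0.19 (adjusted P = 0.398), and of 0.27 without morphine replicate 4.

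A pair of genes followed single libraries instead of the groups. Plxnd1, the receptor gene for Sema3e, was at 44.6 and 32.8 CPM in morphine replicates 4 and 7 and between 11.5 and 19.9 CPM in the other 6 libraries. Sema3a was at 9.43 and 8.34 CPM in control replicates 2 and 6 and at 10.6 CPM in morphine replicates 4 and 7, and between 2.86 and 4.23 CPM in the remaining libraries. Both were picked out after their values were seen.

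The members were also fitted with marker scores of other cells in the model. In bulk libraries, a different share of cells of a type and a different amount of RNA per cell cannot be told apart. With the telencephalic marker score added to the model, the median log2 fold change of the members was 0.08, 43 of 71 were above 0 and 0 were called, with 4 (5.63%) at an unadjusted P under 0.05. In that model 52.6% of all genes were above 0, 1 of the 18939 was called and 7.18% had an unadjusted P under 0.05. With the choroid plexus marker score, the median was -0.22, 23 were above 0 and 0 were called, again with 4 at an unadjusted P under 0.05, where 47.9% of all genes were above 0, 0 were called and 3.47% had an unadjusted P under 0.05. The median SE rose from 0.21 to 0.33 and 0.30 in these models. Epha4 was least moved of the 8 genes called by DESeq2, at 0.66 ± 0.20 (unadjusted P = 0.00812) with the telencephalic score and 0.59 ± 0.21 (unadjusted P = 0.0153) with the choroid plexus score, at adjusted P of 0.577 and 1. Nrp1 went to 0.11 ± 0.23 and 0.03 ± 0.24, and Epha7 to 0.43 ± 0.18 and 0.27 ± 0.16. In the same order, Robo2 went to 0.50 and 0.25, Plxna4 to 0.37 and 0.20, and Sema5a to 0.32 and 0.17. Slit3 went to 0.44 and 0.425, and Ntn5 to 0.82 and 1.25. Besides Epha4 and Epha7, those under 0.05 with the telencephalic score were Efnb3 (-0.55 ± 0.15, unadjusted P = 0.00464) and Efnb1 (-0.79 ± 0.25, unadjusted P = 0.0102). With the choroid plexus score they were, besides Epha4, Unc5b (-0.74 ± 0.26, unadjusted P = 0.0151), Efnb1 (-0.71 ± 0.29, unadjusted P = 0.0308) and Epha8 (-0.59 ± 0.24, unadjusted P = 0.0329). The part of these cells in the members' differences was not tested beyond these models, and the choroid plexus score did not overlap between the groups, while the telencephalic score of control replicate 6 lay above that of morphine replicate 3.

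**Figure D4:**
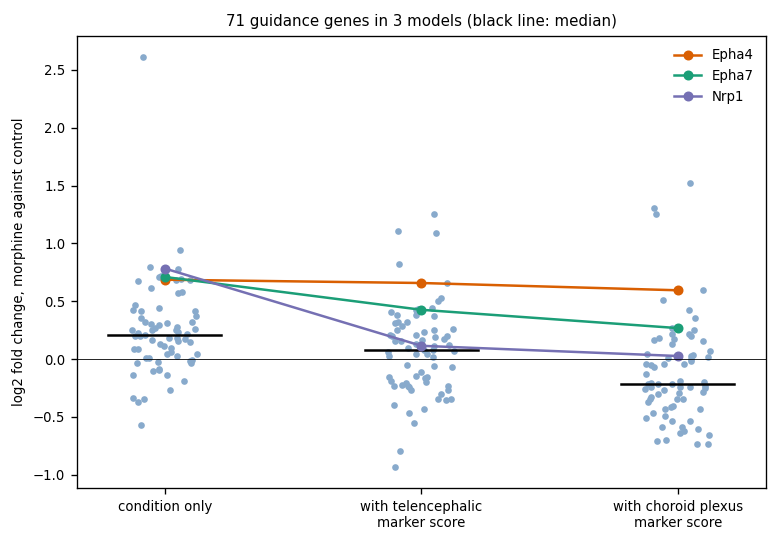
The log2 fold change of each of the 71 genes is shown in the model with condition alone and in the models with either marker score, and black lines are medians at 0.21, 0.08 and -0.22. Epha4 stood at 0.66 and 0.59, no longer called, and Nrp1 stood at 0.11 and 0.03.

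The transcript rows of Epha7 differed in ratio between the groups. The longer RefSeq transcript codes for 998 residues, and the shorter one for 610. EphA7 is known to have short forms without the kinase domain. Counts of the short row were 56.1%, 59.8%, 54.2% and 57.3% of those of the long row in the controls and 64.0%, 62.8%, 63.0% and 67.5% with morphine. Each morphine library exceeded each control library, at means of 56.9% ± 2.3 and 64.3% ± 2.2 (two-sided exact permutation P = 0.0286, the smallest this design allows). A read in a shared exon is counted on both rows, so the ratio is not the share of the short form. Of 896 genes with such a ratio, 5.25% had higher ratios in every morphine library than in any control and 2.79% lower ones. The 5 members with a ratio were Epha7, Nrp2, Ntng1, Sema3a and Sema4f, and Epha7 was the only one without overlap. This comparison was chosen after the values were seen.

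**Figure D5:**
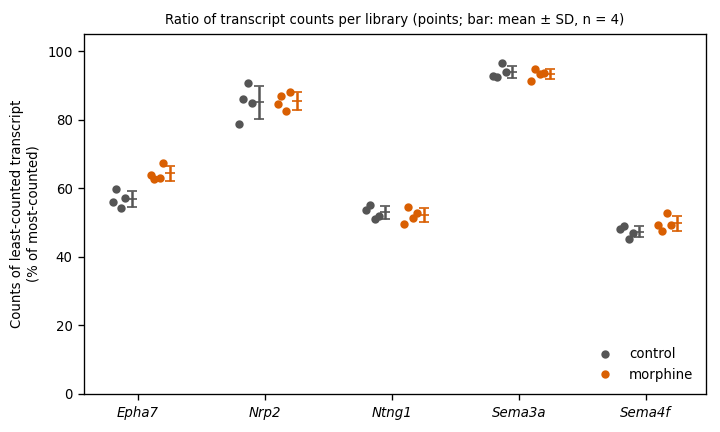
For the 5 members with a usable ratio, points give the counts of the least-counted transcript row as a percent of the most-counted row in each library, with mean ± SD at the side. The Epha7 libraries run from 54.2% to 59.8% in the controls and from 62.8% to 67.5% with morphine, and the other 4 genes overlap.

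Sexes were compared with condition in the model. No member was called by edgeR or DESeq2, and 3 (4.23%) had an unadjusted P under 0.05 by edgeR, against 3.10% of all genes. Plxnb3, known from oligodendrocytes, was at 4.01 CPM in female and 2.10 CPM in male libraries (log2 difference 0.94 ± 0.31, unadjusted P = 0.0111). Its lowest values, 1.08 CPM in control replicate 1 and 1.45 CPM in morphine replicate 4, were in male libraries, and its highest, 5.12 CPM, in morphine replicate 8. The summed oligodendrocyte markers were at 818, 860, 1300 and 1587 CPM in libraries labelled female and at 129, 477, 603 and 852 CPM in male ones. They were also lowest in control replicate 1, at 129 CPM, and highest in morphine replicate 8, at 1587 CPM. In morphine replicate 4, where Plxnb3 was low, they stood at 852 CPM. Their part in the sex difference was not tested. For Unc5b the log2 difference of female against male was 0.51 ± 0.22 (unadjusted P = 0.0415), and for Efna4, on 1 to 12 counts per library, it was -1.34 ± 0.59 (unadjusted P = 0.0410). Sema5a and Epha6 followed, at 0.19 ± 0.11 and 0.17 ± 0.11. Without control replicate 5, the 3 genes and Slit1 had an unadjusted P under 0.05, as did 2.63% of all genes, and 0 members were called, where 5 of all genes were.

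For the interaction of sex and morphine, 0 members were called by either tool and 3 (4.23%) had an unadjusted P under 0.05, against 1.72% of all genes. They were Ntn1 (0.87 ± 0.38), Sema4b (0.68 ± 0.30) and Robo1 (0.48 ± 0.21), named because they were few. Without control replicate 5 the count at an unadjusted P under 0.05 was 0, against 1.64% of all genes. The interaction for Epha4 was 0.15 ± 0.26 on the log2 scale, with 2 libraries per sex and condition.

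Of 72 other genes of guidance pathways (further ligands and co-receptors, adhesion molecules and cytoplasmic effectors), 70 were measured. Chn1 increased and was the only one called by edgeR, with 6 higher (8.57%) and 11 lower (15.7%) at an unadjusted P under 0.05, where 6.79% and 5.31% of all genes were. The median log2 fold change was 0.00, with 35 of 70 above 0. Chn1 encodes alpha-chimaerin, the Rac-inactivating protein through which EphA4 signals to the cytoskeleton in axon repulsion. It was at 657, 692, 757 and 794 CPM in the controls and 1022, 1228, 1266 and 1080 CPM with morphine, well apart. Its log2 fold change was 0.66 ± 0.11, with an adjusted P of 0.0478 by edgeR and 2.76e-06 by DESeq2. It was not called by edgeR with upper-quartile factors (0.0555), after filterByExpr (0.0579), with at least 10 counts in every library (0.0537) or with transcript rows summed (0.0652). Leaving out each library in turn gave an adjusted P of 0.0334 to 0.175, under the threshold only without morphine replicate 3. With the telencephalic and choroid plexus scores it stood at 0.46 and 0.55.

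DESeq2 called 4 of these 70 genes higher (5.71%) and 3 lower (4.29%), against 2.12% and 1.17% of all genes with its adjusted P. The higher were Chn1, Nell2, a ligand of Robo3 (0.53 ± 0.14), Nrcam, an adhesion molecule in semaphorin receptor complexes (0.52 ± 0.14), and Flrt3, a co-receptor of Robo1 (0.68 ± 0.19). The lower were Dpysl5 (-0.61 ± 0.12), Dpysl3 (-0.42 ± 0.11) and Ssh1 (-0.32 ± 0.08). Dpysl5 and Dpysl3 belong to the collapsin response mediator family downstream of semaphorins, and Ssh1 is a cofilin phosphatase. Dpysl5 was at 103 to 144 CPM in the controls and 76.0 to 98.7 CPM with morphine, with an adjusted P of 0.0817 by edgeR and 0.00196 by DESeq2. Farp1, an effector of class A plexins, was at -0.41 ± 0.11 and was called by neither tool.

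Some members are neighbours on the genome. Efna1, Efna3 and Efna4 lie on chromosome 3 with gaps of 32.9 and 10.5 kb, and Efna3 was far above both others, at 16.6 to 30.8 CPM in the controls where Efna1 was at 0.103 to 0.473 and Efna4 at 0.0272 to 0.308. Sema3b and Sema3f lie 72.3 kb apart on chromosome 9 and Ephb2 and Epha8 93.1 kb apart on chromosome 4. Sema3b had a log2 fold change of 0.72 ± 0.27 and Sema3f of 0.20 ± 0.28. For Ephb2 and Epha8 the values were 0.32 ± 0.20 and 0.18 ± 0.22.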

How the data were processed

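RNA of TRAP-purified MOR-expressing PVT cells was measured in 8 libraries, 4 control and 4 morphine, grouped by their labels. The authors deposited whole-number read counts per RefSeq transcript, not normalized. The paper describes Salmon quantification imported with tximport, but this table, in which a read shared by transcripts stands on each row, is not that gene-level matrix, and its counting tool is not given in the sources used here. The labels name mm10 and DESeq2. Therefore 1 row per gene (highest total) was used. The counting is not stated to use strand, and the gene spans of 7 members overlap another coding gene. These are Epha1, Epha5, Ntn3, Ntn5, Plxna1, Sema3b and Unc5a, and exons were not compared. No column was left without a sample, and the labels give no batch.

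All 18939 genes were fitted with edgeR 4.0.16 (R 4.3.3; TMM factors, quasi-likelihood test, condition in the model, Benjamini-Hochberg adjustment over all genes, threshold 0.05). SE is the log2 fold change divided by the root of F. CPM was computed from TMM-normalised sizes, and transcript lengths came from GENCODE. Exact permutation tests of genes used log2(CPM + 0.5), and that of the Epha7 transcript ratio used the percentages themselves. Marker scores were mean log2 CPM with a prior count of 2. Alternatives were DESeq2 1.42.0, limma-voom 3.58.1, other factors, filters, summed rows, sex or marker scores in the model, and each library left out. P values reflect the spread of pooled dissections.

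Genes named were those called or not overlapping, the 20 lowest P, the highest and lowest level per family, the 5 lowest P between sexes and well-known pairs. Members and lists were chosen with earlier results of these data known. Efna4, Epha2 and Robo4 had no DESeq2 adjusted P. Intervals cover counting error only. Sequences are RefSeq, GRCm38.p6. Figures were drawn with matplotlib 3.10.9.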

Additional observations from a re-analysis of the deposited data

Results flagged for a closer look

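Epha7 in morphine replicate 8, at 69.3 CPM, stood apart from the other 3 morphine libraries, which lay between 51.1 and 53.7 CPM. The gap was 0.861 of the range of the group, above Dixon's 95% critical value for 4 samples. In all, 74 groups of 4 libraries were examined over 37 genes, and chance flags about 1 in 20 groups. Without morphine replicate 8, the log2 fold change of Epha7 was 0.60.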

How the results depend on the processing

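The number of members called was 0 after filterByExpr, with at least 10 counts in every library, with limma-voom, with transcript rows summed and with either marker score, 2 with sex in the model (Epha4 and Epha7) and 8 with DESeq2. With each library left out it ran from 0 to 1. Over all genes, where 37 were called, the number was 14 after filterByExpr, 15 with at least 10 counts, 23 with limma-voom, 22 with rows summed, 33 with upper-quartile factors, 1 and 0 with the telencephalic and choroid plexus scores, 110 with sex, 502 with DESeq2 and 0 to 77 with each library left out. Fewer genes were tested after the filters. The other pathway genes called numbered 0 with upper-quartile factors, both filters, summed rows and either score, 7 with DESeq2 and 0 to 1 with each library left out. The median log2 fold change of the members was -0.22 with the choroid plexus score. With the telencephalic score, 24 of the 71 members changed sign, 18 of them to below 0, and among the 34 named genes direction turned for Plxna2 (-0.067), Sema3e (-0.051), Slit1 (-0.19), Ntng1 (0.20) and Nrp2 (-0.35). With the choroid plexus score 36 of the 71 changed sign, 34 of them to below 0, and among the named genes it turned for Ntng2 (-0.054), Epha5 (-0.040), Sema3e (-0.044), Unc5a (-0.29), Slit1 (-0.37), Slit2 (-0.19), Ntng1 (0.15) and Nrp2 (-0.29). With each library left out, log2 fold changes ran from -0.038 to 0.093 for Robo1, -0.17 to 0.12 for Ntn1, -0.11 to 0.039 for Ntng1 and -0.039 to 0.26 for Nrp2. The cause was not tested. Of the 34 named genes only Epha4 and Chn1 were called by edgeR with condition alone, so only these could lose a call, which they did in 26 fits together. Among 644 fits of single genes under alternatives, 16 gained a call and 21 turned. No paired analysis was possible because the groups share no replicate number. Depth limited Efna1, Efna4, Ephb4, Ntn5, Robo4 and Epha2, with under 10 counts in a library.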
